A study of Rattus norvegicus with 20 samples.

Results

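The 8 genes described here carry the core steps of GABA handling and of chloride balance in neurons. They are Gad1 and Gad2, which make GABA, Slc32a1, Slc6a11 and Slc6a13, which move it, Abat, which breaks it down, and Slc12a5 and Slc12a2, which set the chloride gradient. They were chosen by name: every probe of the array that is not a control and whose gene name is 1 of these 8 was taken, which gave 11 probes at 29 spots, of 30367 such probes at 42877 spots. All 11 probes and all 8 genes passed the filter on dim probes, as did 19883 probes and 17086 genes in all.

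Expression was measured on two-colour rat arrays in hypothalamic arcuate nuclei of 20 female Sprague-Dawley rats on postnatal day 15, 4 rats in each of 5 groups. SNS rats had mothers given saline on gestational day 15, had no infantile spasms and received saline after birth. BNS rats had mothers given 2 doses of betamethasone, a synthetic glucocorticoid, at 0.4 mg/kg each on gestational day 15, and likewise had no spasms and received saline after birth. BYS, BYA and BYP rats had the same prenatal betamethasone and spasms triggered by N-methyl-D-aspartic acid (NMDA) on postnatal days 12, 13 and 15. BYS rats were then given saline. BYA rats were given ACTH, the pituitary hormone used against infantile spasms, at 0.3 mg/kg per dose. BYP rats were given PMX53, an antagonist of the complement C5a receptor, at 0.6 mg/kg per dose. Both agents began on postnatal day 12 by the study's methods and on postnatal day 13 by the labels. Every group other than SNS thus carried the betamethasone exposure, and no group had spasms without it. The labels do not tie the rats to litters.

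GABA is the main inhibitory transmitter of the brain and is used by many neurons of the arcuate nucleus, among them the Agrp and Npy neurons that drive feeding. It is made from glutamate by 2 glutamate decarboxylases, packed into vesicles by a single transporter, cleared from the synapse by transporters of neurons and glia, and degraded by a transaminase. Whether it inhibits depends on chloride: Slc12a5 (Kcc2) pumps chloride out of mature neurons, Slc12a2 (Nkcc1) brings it in, and the balance of both shifts as neurons mature after birth.

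Each probe is a synthetic strand of 60 bases that matches its transcript. The positions below are in the rn4 build, as the files give them. The sequences of 5 probes in coding sequence are printed, since they show where a signal was read. The Gad1 coding probe lies at chr3:52813028-52813087 (+), the Gad2 probe at chr17:96321562-96321621 (+) and the Abat probe at chr10:7047983-7048042 (-). The Slc6a11 probe matches chr4:150195271-150196078 (+), a span of 808 bases on the genome, so that it crosses an intron, and the Slc12a5 coding probe lies at chr3:156035392-156035451 (+).
Gad1, transcript position 853: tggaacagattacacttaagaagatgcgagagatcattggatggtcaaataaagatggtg
Gad2, transcript position 1670: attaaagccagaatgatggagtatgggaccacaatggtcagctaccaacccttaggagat
Slc6a11, transcript position 1716: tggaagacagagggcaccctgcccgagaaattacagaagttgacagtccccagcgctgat
Abat, transcript position 1119: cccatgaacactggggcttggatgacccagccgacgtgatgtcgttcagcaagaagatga
Slc12a5, transcript position 3287: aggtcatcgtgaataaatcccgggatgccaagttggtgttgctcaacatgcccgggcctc

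The other 6 probes are given by position only. They are the second Gad1 probe at chr3:52829951-52830010 (+), the Slc32a1 probe at chr3:149347048-149347107 (+), the Slc6a13 probe at chr4:157771827-157771886 (+), the second Slc12a5 probe at chr3:156037850-156037909 (+) and the Slc12a2 probes at chr18:53741021-53741080 (+) and chr18:53736914-53736973 (+). Gad1, Slc12a5 and Slc12a2 have 2 probes each, called below the coding probe (transcript positions 853, 3287 and 3541) and the 3′ probe (positions 3113, 5500 and 6070), and the other 5 genes have 1. The 3′ probes of Slc12a5 and Slc12a2 are printed at 10 spots each on every array, and the other probes at 1 spot.

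Levels are log2 intensities of one channel, quantile normalized, with the dye effect removed. Differences of levels are log2 fold changes. Each animal was one channel of an array, and both channels of an array held 2 animals of the same group, replicates 1 and 2 or replicates 3 and 4 (except BYA replicates 3 and 4, whose arrays were shared with rats of another series). Animals on one array lay closer together (root mean square distance 0.261 on the log2 scale) than other animals of the same group (0.362), and each group lay on a slide of its own (BYA on 2), so that slide and group cannot be told apart. For BYA replicate 3 the dye in the labels goes against the order in its raw data name. The labels were followed. If that label is wrong, the values read are those of the rat of another series on the same array. Gad2 and the Gad1 coding probe in BYA are given without this animal too, and the other BYA values keep it. Signal over background, as a median over the animals of a group, was lowest in SNS (6.89), followed by BYA (7.48) and BYP (9.12), and was 15.9 in both BNS and BYS. This difference in array quality runs along with the group, and its part in the results was not tested.

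Taken over the 5 groups at once, no gene of the 8 was called by limma's moderated F-test (0 of 8, against 30.3% of all genes). Gad2 alone had an unadjusted p under 0.05 (background 44.8%; adjusted p = 0.0632). In the comparisons with SNS, limma called 0 of 8 genes in BNS (background 28.6% of all genes), 1 in BYS (27.1%), 1 in BYA (31.3%) and 2 in BYP (28.9%). All of these calls were higher levels than in SNS. The share called was below the background in each comparison. At an unadjusted p under 0.05, 1 gene passed in BNS (background 41.4%), 1 in BYS (40.2%), 1 in BYA (42.4%) and 2 in BYP (41.5%), and the gene in BNS was Gad2. The median absolute difference of the 8 genes was 0.19 for BNS, 0.14 for BYS, 0.15 for BYA and 0.18 for BYP, beside 0.25, 0.24, 0.25 and 0.25 for all genes. These 4 comparisons use the same SNS animals and are not independent of each other.

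Between the betamethasone-exposed groups, limma called none of the 8 genes in any of the 6 comparisons. The background was 0.0293% for BYS against BNS, 0.117% for BYA against BNS, 1.5% for BYP against BNS, 0% for BYA against BYS, 0.0351% for BYP against BYS and 0.158% for BYP against BYA. Slc12a2 had an unadjusted p under 0.05 in BYP against BNS (background 17.8%) and in BYP against BYA (13.6%), and no other gene had one in these 6. The methods' t-test called none after adjustment in these 6, where it called at most 0.146% of all genes. The combined criterion of the methods, of fold and test, was applied with a fold cut-off from the spread between animals alone. The study's own cut-off also includes the technical noise of the spots. In the form used here the criterion took Slc12a2 in BYP against BNS (fold 1.178, cut-off 1.173), where it took 16.4% of all genes.

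**Figure D1:**
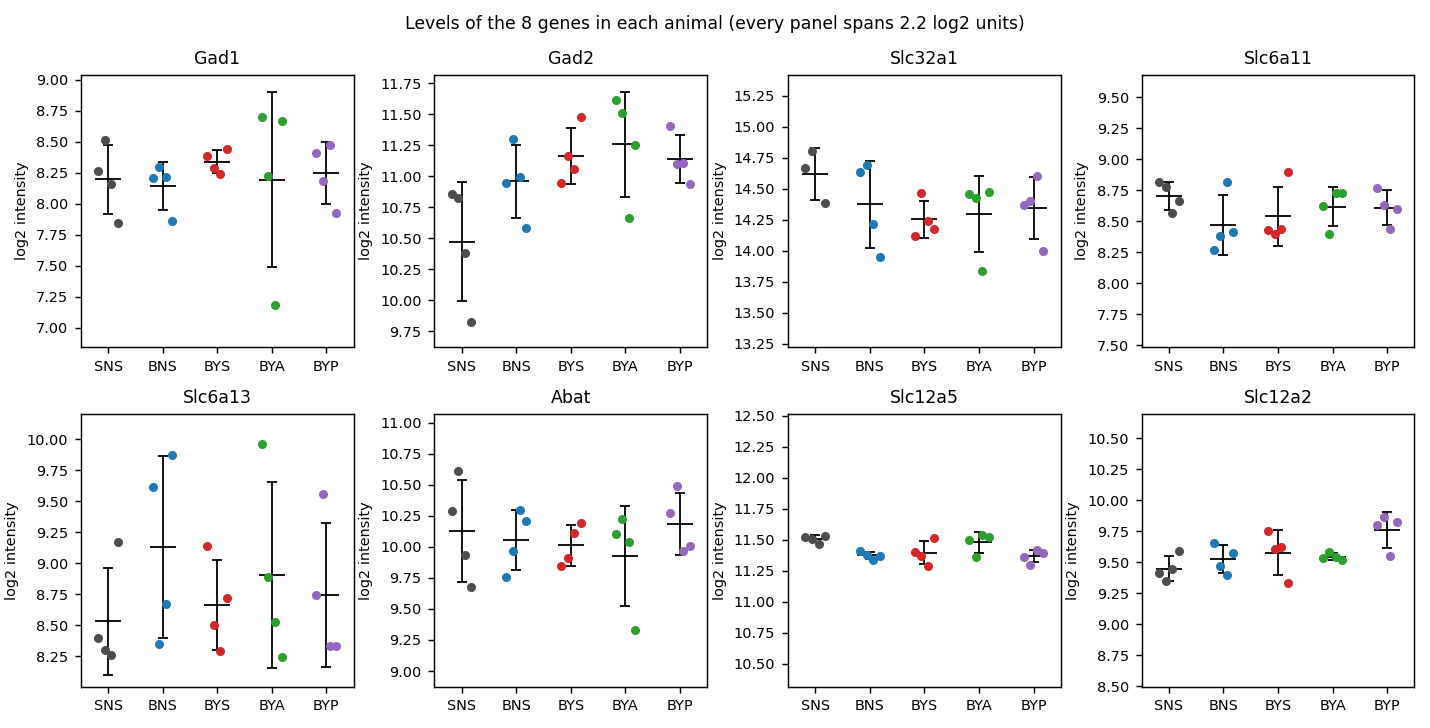
Level of the 8 genes (log2 intensity, dye effect removed) in each of the 20 animals by group; points are animals, and bars give the mean ± SD of the group (n = 4, n = 3 for Slc32a1 in SNS). Gad2 in SNS reaches down to 9.83, below every other animal, Slc6a13 is spread widely inside every group, and Slc12a5 hardly varies.

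**Figure D2:**
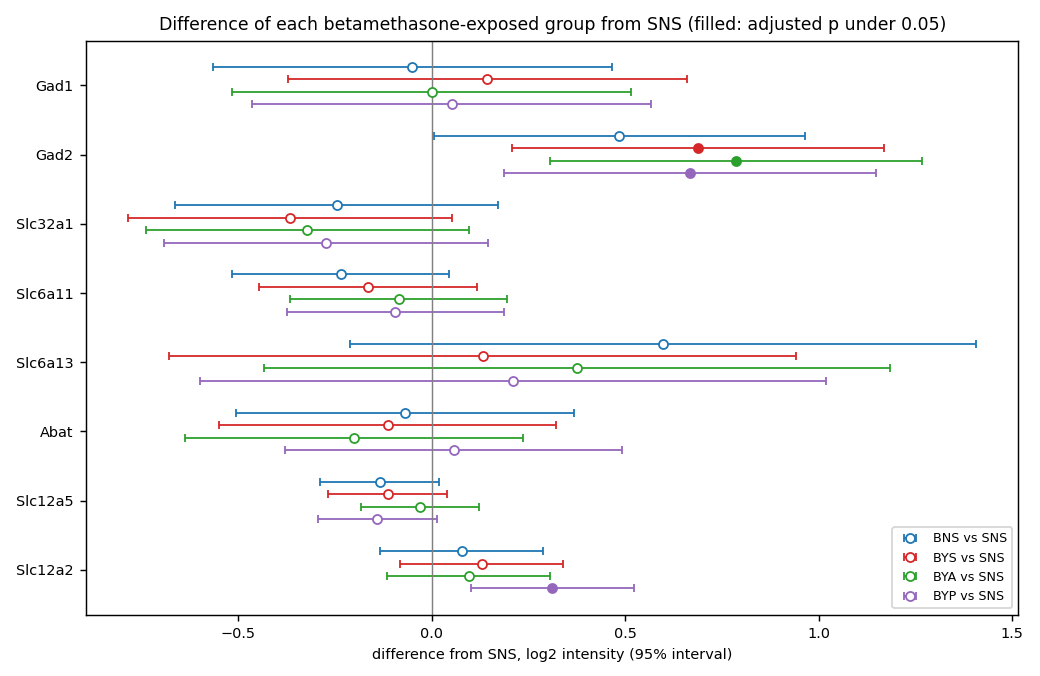
Difference from SNS (log2 fold change, x axis) of the 8 genes (y axis) in BNS, BYS, BYA and BYP, with the 95% interval of the limma fit; filled points have an adjusted p under 0.05. The 3 filled Gad2 points lie at 0.67 to 0.79 and the filled Slc12a2 point of BYP at 0.31, and the other 28 points are open, of which the interval of Gad2 in BNS alone does not reach 0.

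Of the synthesis enzymes, Gad2 encodes the decarboxylase that is bound to synaptic terminals and supplies GABA for release. In SNS its level was 10.86, 10.82, 10.38 and 9.83 in replicates 1 to 4. In BNS it was 10.95, 11.30, 10.99 and 10.59, in BYS 10.95, 11.16, 11.06 and 11.48, in BYA 11.61, 11.51, 10.67 and 11.25, and in BYP 11.41, 11.10, 11.11 and 10.94. All BYS and all BYP animals lay above all SNS animals, where 30.5% and 30.4% of all genes did not overlap in either direction, and BNS and BYA overlapped with SNS. The SNS animals were also spread the most, over about 1 log2 unit, with replicate 4 the lowest of the 20.

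Gad2 was higher than in SNS by 0.69 ± 0.23 (SE) in BYS, a fold of 1.61 (limma, adjusted p = 0.0333), by 0.79 ± 0.23 in BYA, a fold of 1.73 (adjusted p = 0.0151), and by 0.67 ± 0.23 in BYP, a fold of 1.59 (adjusted p = 0.0365). The difference of BNS was 0.48 ± 0.23, with a 95% interval from 0.0042 to 0.97, and did not pass (adjusted p = 0.118). The order of the group means was SNS, BNS, BYP, BYS and BYA, and no step between neighbours passed: SNS to BNS was 0.48, BNS to BYP 0.18 (adjusted p = 0.735), BYP to BYS 0.022 (adjusted p = 0.991) and BYS to BYA 0.098 (adjusted p = 0.953). With the array as a random block the differences of BYS, BYA and BYP were 0.69, 0.74 and 0.67 and none passed (adjusted p = 0.0929, 0.0508 and 0.0977). With channels scaled to the same median they were 0.82, 0.80 and 0.28, with the processed signals 0.44, 0.50 and 0.44, and none passed. None of these differences passed with the methods' t-test either (adjusted p = 0.16, 0.159 and 0.174), nor with only the 8 samples compared. Without SNS replicate 4 they fell to 0.46, 0.55 and 0.44 (adjusted p = 0.12, 0.0579 and 0.136), and leaving out SNS replicate 3, BYS replicate 2, 3 or 4, BYA replicate 1 or 2, or BYP replicate 1, 2 or 3 also ended the call of at least 1 of them. Without BYA replicate 3 the difference of BYA was 1.00 (adjusted p = 0.00251).

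Gad1 encodes the decarboxylase that fills the cell body and makes most of the GABA of the brain. Its 3′ probe was bright (6369 to 34407 units of raw signal) and well above background in 20 of 20 animals. Its coding probe was dim (136 to 1351 units) and well above background in 16 of 20, in 2 of 4 animals each of SNS and BYA. The 3′ spot of SNS replicate 1 was marked as an outlier by the scanner software, so the gene's value rests on the dim probe alone.

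On the bright 3′ probe, the 3 measured SNS animals stood at 13.75, 13.97 and 14.32, and the groups' means were 14.01 in SNS, 14.19 ± 0.22 (SD, n = 4) in BNS, 13.95 ± 0.090 in BYS, 14.17 ± 0.23 in BYA and 14.06 ± 0.21 in BYP. Every group overlapped with SNS, and the differences ran from -0.064 to 0.18 with no call (smallest adjusted p = 0.42 in BNS). The coding probe gave means of 8.20 in SNS, 8.14 in BNS, 8.34 in BYS, 8.19 in BYA and 8.25 in BYP, with BYA replicate 3 alone at 7.19 and the other 3 BYA animals from 8.23 to 8.70. Its difference of BYA from SNS was -0.00082, with a 95% interval from -0.52 to 0.51. Without BYA replicate 3 it was 0.36 and did not pass (adjusted p = 0.0941), and the difference of BNS, -0.051, was 0.97 with the processed signals, again with no call. The 2 Gad1 probes did not vary together across animals (r = -0.167, 19 animals).

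Slc32a1 encodes the vesicular transporter that loads GABA and glycine into vesicles. Its level was 14.67, 14.80 and 14.39 in SNS replicates 1, 2 and 4 (replicate 3 has no value, its spot being an outlier). It was 14.64, 14.69, 14.22 and 13.95 in BNS, 14.12, 14.47, 14.24 and 14.18 in BYS, 14.46, 14.42, 13.84 and 14.47 in BYA, and 14.37, 14.40, 14.60 and 14.00 in BYP. Every group overlapped with SNS. All 4 means were below that of SNS, by 0.25, 0.37, 0.32 and 0.27 in BNS, BYS, BYA and BYP, and none passed (limma, adjusted p = 0.362, 0.176, 0.229 and 0.308). With the scanner's processed signals all 4 differences turned slightly positive (0.0057 to 0.19), and with channels scaled to the same median that of BYP was -0.89, with no call.

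Of the plasma membrane transporters, Slc6a11 encodes Gat3, which takes up GABA mainly into astrocytes. Its level lay between 8.27 and 8.90 in all 20 animals, and its group means stood in the order BNS (8.47), BYS (8.54), BYP (8.61), BYA (8.62) and SNS (8.71). No neighbours in that order differed beyond their spread, and the differences from SNS ran from -0.24 ± 0.13 (SE) in BNS (adjusted p = 0.19) to -0.086 in BYA. Without BNS replicate 3, at 8.82 the highest BNS animal, the difference of BNS was -0.38 and passed (adjusted p = 0.0473). BYS replicate 4, at 8.90, stood apart from the other 3 BYS animals, which lay from 8.40 to 8.44. The Slc6a11 probe, at 149 to 483 units of raw signal, was well above background in 19 of 20 animals and in 3 of 4 of SNS.

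Slc6a13 encodes GAT-2, a GABA and taurine transporter of the meninges, the liver and the kidney rather than of neurons. It was the most variable of the 8 genes: its spread between animals of a group was 0.61 on the log2 scale, higher than or equal to that of 98.8% of all genes. It was 8.40, 8.30, 8.26 and 9.17 in SNS, 9.62, 8.35, 8.67 and 9.87 in BNS, 9.14, 8.50, 8.29 and 8.72 in BYS, 9.96, 8.89, 8.53 and 8.25 in BYA, and 8.74, 9.56, 8.33 and 8.33 in BYP. Each group held animals near 8.3 and 1 or 2 animals above 9. No comparison passed; the largest difference, BNS against SNS, was 0.60 with a 95% interval from -0.21 to 1.41 (adjusted p = 0.25). It was 0.34 without BNS replicate 4 and 1.49 with the processed signals.

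The animals with a high Slc6a13 level were those with high levels of meningeal genes. The 3 genes whose levels over the 20 animals were most like it were Slc22a6 (r = 0.977), an organic anion transporter, Col26a1 (r = 0.945), a collagen gene, and Ptgds (r = 0.925), the prostaglandin D synthase made by the leptomeninges and choroid plexus. The log2 of the summed level of 6 meningeal and fibroblast genes (Col1a1, Col1a2, Dcn, Lum, Ogn and Igf2) followed it with r = 0.791 over 20 animals and r = 0.735 without the 2 animals farthest from the median sum. Single genes of the 6 ranged from r = 0.383 for Col1a2 to r = 0.843 for Igf2. Within groups of 4 animals r was 0.983 in SNS, 0.982 in BNS, 0.863 in BYS, 0.752 in BYA and 0.341 in BYP. On the linear scale, the sum of the 6 genes ran from 11211 to 22398 in SNS, from 12273 to 32038 in BNS, from 13339 to 22961 in BYS, from 15081 to 29376 in BYA and from 15994 to 24487 in BYP. Points share arrays and dissections, and whether more cells of a type or more RNA per cell stands behind a level in such tissue samples cannot be told apart.

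**Figure D3:**
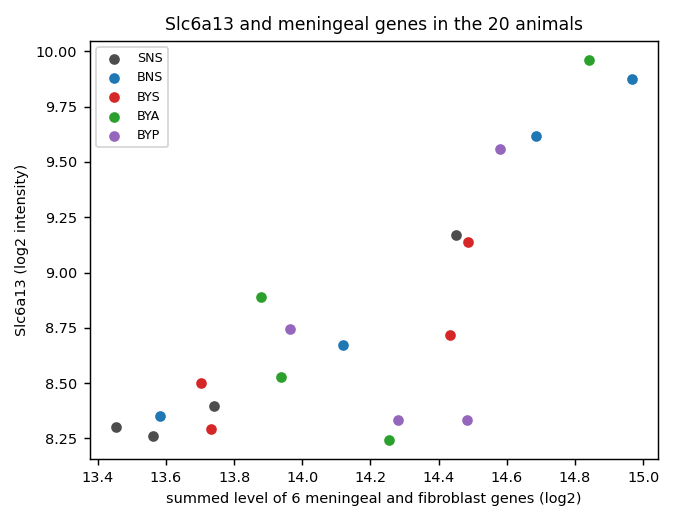
Level of Slc6a13 (log2 intensity, y axis) against the log2 of the summed level of 6 meningeal and fibroblast genes (x axis) in the 20 animals, coloured by group. The highest values of both fall on the same animals, while 2 BYP animals at 8.33 and 1 BYA animal at 8.25 have low Slc6a13 beside sums above 14.

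Abat encodes the transaminase that degrades GABA in mitochondria. In SNS it was 10.29, 10.61, 9.93 and 9.68, in BNS 9.76, 9.97, 10.30 and 10.21, in BYS 9.84, 9.91, 10.11 and 10.19, in BYA 10.11, 10.22, 10.04 and 9.33, and in BYP 10.28, 10.49, 9.96 and 10.01. Every group overlapped with SNS. The differences from SNS ran from -0.20 ± 0.21 (SE) in BYA to 0.057 in BYP, and no comparison passed (adjusted p = 0.482 to 0.856 against SNS).

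The chloride transporters were each read by 2 probes, and calls on one were not seen on the other. Slc12a5, the chloride extruder of mature neurons, was read by a bright 3′ probe (15222 to 60969 units of raw signal) and by a dim coding probe (106 to 296 units, well above background in 16 of 20 animals and in 2 of 4 each of SNS and BYA). Slc12a2, the chloride importer, was read by a 3′ probe of 653 to 2872 units and by a coding probe of 119 to 645 units, well above background in 19 of 20 animals and in 3 of 4 of SNS. The 2 probes of each gene tended to vary in opposite ways across the 20 animals (r = -0.446 for Slc12a5 and r = -0.301 for Slc12a2). The mean of both probes is therefore steadier than either: the spread between animals of a group was 0.065 for Slc12a5 as a gene, but 0.11 on its 3′ probe and 0.16 on its coding probe.

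**Figure D4:**
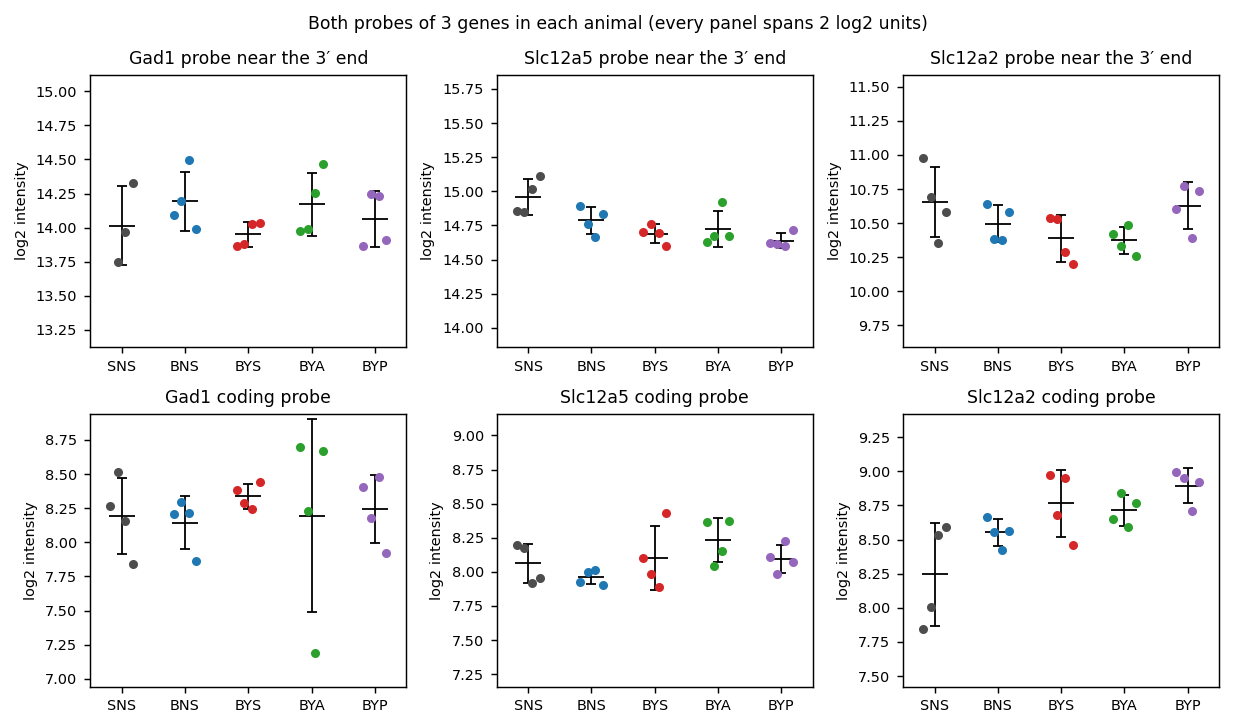
Levels (log2 intensity) of both probes of Gad1, Slc12a5 and Slc12a2 in each animal by group, the probe near the 3′ end above and the coding probe below; bars give the mean ± SD (n = 4, n = 3 for the Gad1 probe near the 3′ end in SNS). The Slc12a5 probe near the 3′ end is highest in SNS while its coding probe is not, and the Slc12a2 coding probe is lowest in SNS while its probe near the 3′ end is highest there.

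As a gene, Slc12a5 was 11.53, 11.51, 11.47 and 11.53 in SNS, 11.41, 11.38, 11.34 and 11.37 in BNS, 11.40, 11.37, 11.29 and 11.51 in BYS, from 11.36 to 11.54 in BYA, and 11.37, 11.30, 11.41 and 11.39 in BYP. All BNS and all BYP animals lay below all SNS animals, as was the case in one or the other direction for 35.9% of all genes in BNS and 30.4% in BYP. The differences were small, -0.13 in BNS and -0.14 in BYP, and did not pass with limma (adjusted p = 0.17 and 0.153), though the methods' t-test called both after adjustment over all genes (background 18.8% in BNS and 11.8% in BYP). On the 3′ probe alone the level was lower than in SNS by 0.27 in BYS (limma over all probes, adjusted p = 0.0388; background 27.4% of all probes) and by 0.32 in BYP (adjusted p = 0.0153; background 29.2%), without overlap in either (background 30.8% and 30.7%). BNS fell short with -0.17 (adjusted p = 0.168) and BYA with -0.23 (adjusted p = 0.0598). Under 5 other settings BYS passed in none. BYP passed with channels scaled to the same median (-0.90), with the processed signals and without background correction, but not under the array block (adjusted p = 0.0611) or after loess and Aquantile normalization (-0.14, adjusted p = 0.283). The coding probe differed from SNS by -0.10 to 0.17, with no call.

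As a gene, Slc12a2 was 9.41, 9.35, 9.44 and 9.59 in SNS, 9.66, 9.47, 9.40 and 9.58 in BNS, 9.76, 9.61, 9.62 and 9.33 in BYS, 9.53, 9.59, 9.54 and 9.52 in BYA, and 9.80, 9.86, 9.55 and 9.83 in BYP. Of the BYP animals 3 lay above all SNS animals, and replicate 3 lay among them. BYP was higher than SNS by 0.31 ± 0.10 (SE), a fold of 1.24 (limma, adjusted p = 0.0271), and higher than BNS, BYS and BYA by 0.23, 0.18 and 0.22, none of which passed (adjusted p = 0.226, 0.666 and 0.353). BNS, BYS and BYA differed from SNS by 0.077, 0.13 and 0.095. The call of BYP was lost with the array as a random block (adjusted p = 0.107) and with the methods' t-test (adjusted p = 0.0773). It was lost too with channels scaled to the same median, with only the 8 samples compared and where the coding probe was left out. The same was so without SNS replicate 1 or 2 or BYP replicate 1, 2 or 4 (adjusted p from 0.0567 to 0.0765).

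This call came from the coding probe. There the level was 7.85, 8.00, 8.53 and 8.60 in SNS and 8.995, 8.95, 8.71 and 8.92 in BYP, so that all BYP animals lay above all SNS animals. The difference was 0.65 ± 0.15 (SE) in BYP (limma over all probes, adjusted p = 0.0046), 0.52 in BYS (adjusted p = 0.0189) and 0.47 in BYA (adjusted p = 0.0274; background 31.8% of all probes), and 0.31 in BNS, which did not pass (adjusted p = 0.136; background 28.7%). The call of BYS was lost under the array block, with channels scaled to the same median and with the processed signals (adjusted p = 0.065, 0.105 and 0.0859), and that of BYA under these and after loess and Aquantile normalization (adjusted p = 0.0695 to 0.196). For BYP it passed under each of 5 other settings, with an adjusted p of 0.0217 under the array block, 0.015 with channels scaled to the same median, 0.0082 with loess and Aquantile normalization, 0.0329 with the processed signals and 0.0018 without background correction. The methods' t-test, a fit of only the 8 samples compared and leaving out animals were not tried on this probe. The F-test over the 5 groups called this probe as well (adjusted p = 0.0252, background 30.4% of all probes). The probe was well above background in 3 of 4 SNS animals. It passed the filter only through the exposed groups, where it was higher, so its calls are not independent of the filter. The 3′ probe had no call: its level ran from 10.36 to 10.98 in SNS and from 10.39 to 10.77 in BYP, a difference of -0.027 with a 95% interval from -0.30 to 0.24, and its differences in BNS, BYS and BYA were -0.16, -0.26 and -0.28. The SNS animals that were low on the coding probe, replicates 1 and 2, shared an array and were the 2 highest SNS animals on the 3′ probe.

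The ratio of Slc12a5 to Slc12a2 was taken within each animal as the difference of the log2 levels. Its height depends on the probes and has no meaning of its own, but it can be compared between groups, and a factor common to a channel cancels in it. An effect that depends on intensity need not cancel. On the coding probes the ratio was 0.35 and 0.17 in SNS replicates 1 and 2. It was -0.61 and -0.64 in SNS replicates 3 and 4, on another array. With the mean of both probes of each gene, it was 2.11, 2.16, 2.02 and 1.94 in SNS, 1.75, 1.91, 1.94 and 1.79 in BNS, 1.65, 1.77, 1.67 and 2.18 in BYS, 1.96, 1.77, 2.00 and 2.01 in BYA, and 1.56, 1.44, 1.86 and 1.57 in BYP. All BNS and all BYP animals lay below all SNS animals, BNS only just, and the other groups overlapped with SNS. The ratio was lower than in SNS by 0.21 in BNS (a fold of 0.864) and by 0.45 in BYP (a fold of 0.731), each with an exact two-sided permutation p of 0.0286, the smallest that 4 against 4 animals allow. Adjusted over the 10 comparisons both became 0.143, and no comparison passed. After this adjustment a comparison can pass only if most of the 10 reach that smallest p, so failing to pass says little about the ratio. BYS and BYA differed from SNS by -0.24 (exact p = 0.143) and -0.13 (exact p = 0.171).

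Among the betamethasone-exposed groups the ratio was lowest in BYP, below BYA by 0.33 (exact p = 0.0571), below BNS by 0.24 (exact p = 0.0857) and below BYS by 0.21 (exact p = 0.229), with adjusted p of 0.19, 0.214 and 0.286. On the 3′ probes alone, SNS did not stand out: the means were 4.30 ± 0.36 (SD, n = 4) in SNS, 4.29 ± 0.059 in BNS, 4.30 ± 0.12 in BYS, 4.35 ± 0.10 in BYA and 4.01 ± 0.15 in BYP. There BYP lay below BNS without overlap, by 0.28 (exact p = 0.0286, adjusted p = 0.19), and below SNS by 0.29 with overlap (exact p = 0.229). On the coding probes the means were -0.18 in SNS, -0.59 in BNS, -0.67 in BYS, -0.48 in BYA and -0.80 in BYP, all groups overlapped with SNS, and the exact p for BYP against SNS was 0.0857. BYP had the lowest mean ratio on both probe pairs, whose average is the ratio of the genes, and on neither did a comparison pass after adjustment. The exact tests take the 2 animals of an array as independent.

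**Figure D5:**
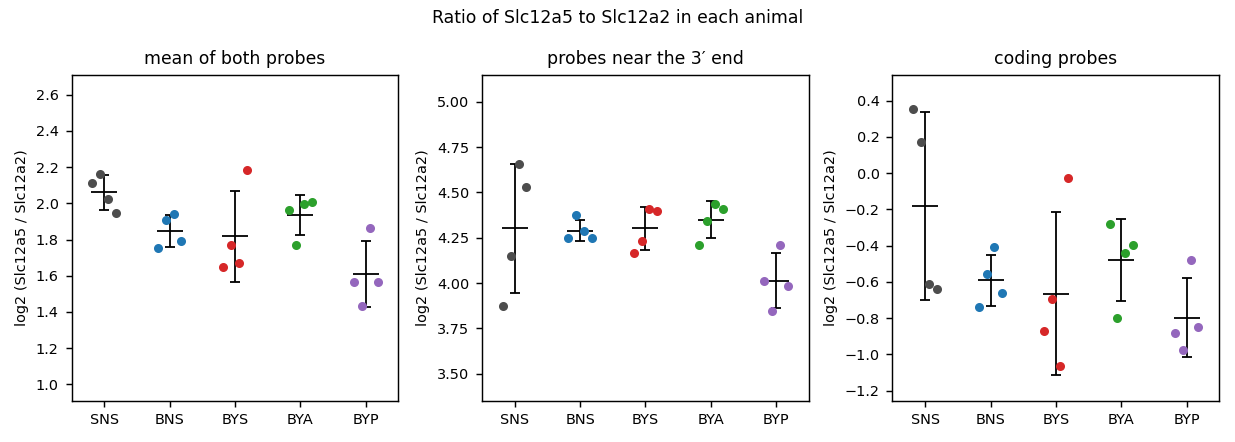
log2 ratio of Slc12a5 to Slc12a2 in each animal by group, from the mean of both probes, from the probes near the 3′ end and from the coding probes; bars give the mean ± SD (n = 4). BYP has the lowest mean in each panel, at 1.61, 4.01 and -0.80 (the first panel is the average of the others), and SNS has the highest in the first and the last.

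Of 40 other genes of GABA metabolism, amino acid supply and chloride transport, 36 were measured. Against SNS, limma called 5 higher and 4 lower in BNS, 5 and 5 in BYS, 6 and 4 in BYA, and 6 and 3 in BYP, near the background of 28.6, 27.1, 31.3 and 28.9% of all genes. None of the 36 was called in the 6 comparisons among betamethasone-exposed groups (limma), where 1 to 7 of them had an unadjusted p under 0.05, the 7 in BYP against BNS beside a background of 17.8%. The F-test over the 5 groups called 8 of them, beside 30.3% of all genes.

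Among the genes of the list called by the F-test, Slc38a2, a glutamine transporter of neurons that supplies glutamate and GABA synthesis, was higher than in SNS by 0.61 to 0.83 in the 4 groups (adjusted p = 0.000247 to 0.0032). Slc4a3, a chloride and bicarbonate exchanger of neurons, was higher by 0.56 to 0.81 (adjusted p = 0.00034 to 0.00652), and Pdxk, the kinase that makes the cofactor of the decarboxylases and of Abat, by 0.46 to 0.58 (adjusted p = 0.00443 to 0.0165). Clcn2, a chloride channel, was higher by 0.25 to 0.43 (adjusted p = 0.00153 to 0.0425) as the mean of 2 probes, of which the one at transcript position 2393 had no call on its own (adjusted p = 0.107 to 0.609) and the one at 1632 none in BYP (adjusted p = 0.102). Slc38a1, a second glutamine transporter of neurons, was lower by 0.76 in BNS (adjusted p = 0.0102) and by 0.92 in BYS (adjusted p = 0.00295), while BYA (-0.40) and BYP (-0.18) did not pass. Slc12a8, a member of the cation chloride cotransporter family, was lower by 0.58 to 0.66 (adjusted p = 0.00529 to 0.0119). Glud1, glutamate dehydrogenase, was lower by 0.49 to 0.69 (adjusted p = 0.0038 to 0.0183), with values in only 2 animals each of SNS and BYA, but with the processed signals its differences ran from -0.079 to 0.10 with no call. With the processed signals, Slc38a1 in BYS (-0.98, adjusted p = 0.0264) was the only call of these 7 genes. With channels scaled to the same median, Pdxk and Slc12a8 were called in all 4 comparisons. Slc38a2 and Slc4a3 were called in none there (adjusted p = 0.059 to 0.55 and 0.129 to 0.943). Under the array block, Clcn2 was called in BYA alone, Pdxk not in BNS and Glud1 not in BNS or BYS, while the other calls held.

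The 8 genes did not vary as a set across animals. The closest pairs were Gad1 with Slc32a1 (r = 0.628) and Gad1 with Gad2 (r = 0.59), and the most opposed were Slc12a5 and Slc12a2 (r = -0.531), over 19 or 20 animals that share groups and arrays. Gad1 stands here for its dim coding probe alone. BYA replicate 3 was the lowest animal of all for Gad1 (7.19) and for Slc32a1 (13.84), and r without it was not computed. Over all genes measured, the one with the most similar level was Ubap2 for Gad1 (r = 0.895), Mat2a for Gad2 (r = 0.908), Casc3 for Slc32a1 (r = 0.783), LOC681300 for Slc6a11 (r = 0.859), Pacsin2 for Abat (r = 0.916) and Eml2 for Slc12a2 (r = 0.844). For Slc12a5 the closest 2 were unnamed probes and the next was Oxa1l (r = 0.807).

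The tissue was checked by its markers. Beside their calls stands the background of limma against SNS, which was 28.6% of all genes in BNS, 27.1% in BYS, 31.3% in BYA and 28.9% in BYP. All 10 genes of the list for arcuate neurons were measured, none was called in BYA or BYP against SNS, Tbx3 was lower in BNS, and Npy and Tac3 were lower in BYS; the sum of 9 of them, without Sst, which has no value in SNS replicate 1, ran from 92811 to 140420 in SNS and from 70378 to 166630 in the other 16 animals. Of 6 list genes for GABAergic fate, 4 were measured; Dlx1 was higher than in SNS in all 4 groups (0.68 to 0.89), Dlx5 was lower in BNS and BYP (-0.51 and -0.54), and the sum ran from 5465 to 6732 in SNS and from 6163 to 9010 in the others. Of 5 measured neuronal genes, Syt1 was higher than in SNS in all 4 groups and the other 4 were not called. Of the 4 pituitary genes 1 was above the filter, with Gh1, Prl and Tshb below it, and of the 6 choroid plexus genes 3 were, with Kl, Clic6 and Kcnj13 below it. The summed level of the 3 measured choroid plexus genes ran from 3570 to 6730 in SNS and from 1917 to 3528 in the other groups, so that the sums did not overlap. Of all single genes, 35.9% in BNS, 30.5% in BYS and 30.4% in BYP did not overlap with SNS in either direction. The calls of the 3 genes went both ways, with Aqp1 higher in BNS and Folr1 lower in BYA. Of the other lists, these genes were called against SNS: the red cell gene Alas2 was higher in BNS, BYS and BYA (0.93 to 1.02), and the microglial gene Cx3cr1 was lower in BNS, BYS and BYP (-1.22 to -0.61), with C1qa higher in BYS and Itgam higher in BYP. The other measured red cell gene, Hbb, was not called. The median sum of both red cell genes was 67847 in SNS, 69407 in BNS, 55991 in BYS, 52740 in BYA and 55813 in BYP, with overlap. The thalamic gene Tcf7l2 was lower in BNS, BYA and BYP (-0.58 to -0.49), with Prkcd higher in BYP, and the ciliary gene Foxj1 of the ependyma list was lower in BYA and BYP (-0.53 and -0.58). Of 7 astrocyte genes, Gja1 was higher in BNS and BYS, Slc1a2 lower in BNS, and Gfap and S100b higher in BYP. The meningeal genes Igf2 (BNS and BYP) and Dcn (BNS) were higher, and no oligodendrocyte or glutamatergic gene was called. The part of these lists in the differences of Gad2 and Slc12a2 from SNS was not tested.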

How the data were processed

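The authors deposited 1 scanner file per array. Per the file headers, the mean signals and local backgrounds are intensity values without background subtraction, the processed signals are intensity values background-subtracted and dye-normalized by the software (Agilent Feature Extraction 10.7.3.1 per the labels), and the flags score each spot as 0 or 1. The 82 columns of rats of another series on 2 arrays were not used. BYA replicate 3 was read in the dye its label names.

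Normexp of limma (offset 50) corrected the background, and quantile normalization brought the 20 channels to one log2 distribution; outlier spots (1.19%) were dropped, and spots of a probe were averaged. The filter asked that, in every one of the 4 samples of some group, a share of 0.5 or more of a probe's spots be well above background. A gene's value is the mean of its complete probes or, with none complete, the probe missing in the fewest samples. By accession, 61.4% of probes matched RefSeq genes, and the others kept the name in the files. One limma fit of group and dye over 17086 genes gave 10 comparisons and the F-test, with Benjamini-Hochberg adjustment over all genes and a threshold of 0.05; where a sample has no value the fit leaves it out. The ratio was tested with exact two-sided permutations (70 relabellings). The number of arrays limits the precision. The software was limma 3.58.1 with statmod 1.5.0 in R 4.3.3. The 8 genes, the lists, the rule for named genes (the 8, called list genes, and the genes most alike by Pearson's r) and the tests were chosen with earlier results of these data known. The alternatives were other normalizations, filters, probes, blocks and tests, and leaving out each animal. One gene of the list of other GABA and chloride genes is not reported here. Dlx1, Npy and the other marker genes were named from their lists after their values were seen.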

Additional observations from a re-analysis of the deposited data

Results flagged for a closer look

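Among 83 groups of 4 values of the 8 genes, of their probes and of the ratio, 5 held an animal far from the other 3, where chance gives about 1 in 20 groups. They were BYA replicate 3 for Slc32a1 (13.84, the lowest), BYS replicate 4 for Slc6a11 (8.90, the highest), SNS replicate 4 for Slc6a13 (9.17, the highest), and, on the Slc12a5 probe near the 3′ end, BYA replicate 3 (14.92, the highest) and BYP replicate 4 (14.72, the highest). BYA replicate 3 appears for Slc32a1 and for Slc12a5, is the animal with the lowest level on the Gad1 coding probe, lay alone on its slide among the animals used, and is the animal whose dye label is in doubt. If that label is wrong, its values are those of a rat of another series.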

How the results depend on the processing

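Against SNS, BYS had 1 of the 8 genes called, BYA 1 and BYP 2. The main fit called 4631, 5342 and 4938 of 17083 genes in all. The count became 0, 0 and 0 with channels scaled to the same median, where 1441, 1389 and 4902 genes were called in all. It was also 0, 0 and 0 with the array as a random block (correlation 0.365) and with only the 8 samples compared. The array block called 2378, 3306 and 2643 genes in all. With the scanner's processed signals it was 0, 0 and 1 (Slc12a2, higher), among 2318, 1943 and 2717 genes called in all. With the methods' t-test it was also 0, 0 and 1 (Slc12a5, lower), among 2298, 1555 and 2019. The combined criterion, in the form used here, took Slc12a2 (higher) and Slc12a5 (lower) for BYP, but not Gad2, beside 32.1% of all genes. For BYS and for BYA the count under this criterion was 0. It was 2 in BYS with the brightest probe of each gene and with probes well above background in all 20 samples, and 3 in BYS, 2 in BYA and 3 in BYP where each probe was tested on its own, an alternative added after seeing the data. For BNS against SNS the count of the 8 genes rose from 0 to 1 with the t-test and with the criterion (Slc12a5), which took 18.8 and 37.4% of all genes. It rose to 2 with the slide as a random block (correlation -0.128, Gad2 and Slc12a5), where 8142 of 17083 genes were called. That fit cannot separate slide from group, and its negative correlation narrows the errors. For BYP against BNS it rose from 0 to 1 with the slide as a random block (2646 of 17086 genes called) and with the criterion (16.4% of all genes), each time Slc12a2. The F-test called 1 gene with loess and Aquantile normalization, 2 with the slide as a random block and 1 where each probe was tested alone. Leaving out 1 animal gave 0 to 1 genes for BNS, BYS and BYA against SNS, 0 to 2 for BYP and 0 to 1 in the F-test. Slc12a2 in BYP against SNS reversed to -0.027 with the brightest probe and with probes well above background in all 20 samples, which leave the coding probe out. Gad2 was higher than in SNS under all 34 settings that gave a value. The 10 differences of the ratio did not pass under any alternative (smallest adjusted p = 0.0952), which the exact test on such small groups all but fixed in advance. With 1 animal left out of a group, the smallest exact permutation p of its comparisons is 0.0571 before adjustment. The direction of the 10 differences held in all 29 alternatives, except in BYA against SNS (27 of 29), BYS against BNS (23) and BYP against BYS (28). The replicate block, in place of the dye, raised the F-test's count from 0 to 1 and changed no other count. Animals of the same number did not pair (mean correlation 0.0031, from -0.239 to 0.28). Channels scaled to the same median moved the median difference of all genes from SNS to -0.14 in BNS, -0.13 in BYS and -0.11 in BYP. In SNS and BYA the dim coding probes of Gad1 and Slc12a5 were well above background in 2 of 4 animals, which limits what they can show. The same limit holds in SNS for the Slc6a13 probe, also well above background in 2 of 4 animals there.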
